A study of Mus musculus with 6 samples.

Results

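The genes described here are 43 mouse genes of DNA replication and of the step from G1 into S phase of the cell cycle, given as a list of gene names, out of 47643 genes in the count table. They were read in the aorta of Apoe-/- mice, which lack apolipoprotein E and accumulate cholesterol-rich particles in plasma, with atherosclerosis as a result. The EPO group of 3 libraries came from Apoe-/- mice that received recombinant human erythropoietin, the hormone of red cell formation, at 5000 IU per kg per day into the peritoneum for 4 weeks. The Vehicle group of 3 libraries came from Apoe-/- mice that received saline by that route for 4 weeks. Every library thus carries the Apoe deletion, and EPO was the variable compared. The whole aorta was used, so wall, adventitia, blood and attached tissue are mixed, and fewer cells of a type cannot be told apart from less RNA per cell. The labels do not state in words that each library is a separate mouse, so p-values here reflect variation among 6 libraries that may in part be technical.

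Before S phase, the origin recognition complex, Cdc6 and Cdt1 load the hexameric Mcm2 to Mcm7 helicase onto DNA. Entry into S phase follows when cyclin E kinase activity and E2F transcription factors rise, Cdc45 and the GINS complex turn the loaded hexamer into the active helicase, and the polymerases, the PCNA clamp and its loader copy both strands. Most of these genes are themselves E2F targets that fall silent in resting cells, and smooth muscle cells and fibroblasts of a healthy adult artery are mostly resting.

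Total counts ran from 28798632 to 38502430 in the EPO libraries and from 23278649 to 27904322 in the Vehicle libraries. Levels are given as CPM, a gene's count relative to the library's total after scaling by edgeR's TMM factors, and a gene was called changed when its adjusted p in edgeR's quasi-likelihood test was under 0.05. The 6 smooth muscle markers, among them Acta2 and Myh11, were all present and all called lower with EPO, their sum being 7144 to 9128 CPM in EPO and 19570 to 27930 CPM in Vehicle. Skeletal muscle markers were called higher for 6 of 6 genes (sums of 210.4 to 2341 CPM in EPO and 5.05 to 10.7 CPM in Vehicle), B and plasma cell markers for 2 of 6 (25.8 to 83.9 CPM in EPO and 23.3 to 25.8 CPM in Vehicle) and macrophage markers for 1 of 6 (3266 to 6818 CPM in EPO and 1469 to 3044 CPM in Vehicle). The called macrophage marker was Adgre1 (2.93-fold). Most of the macrophage sum was Lyz2, which overlapped between groups (2146 to 4063 CPM in EPO and 953.8 to 2174 CPM in Vehicle) and was not called. For macrophage markers the share called higher, 16.7%, was near the 12.9% of all genes tested. Their log2 fold changes, however, ran from 0.54 to 1.55, with a median of 0.99. Every EPO library lay above every Vehicle library for 4 of the 6, against 22.9% of all genes tested. Of 6 fibroblast markers 2 were called higher, Col1a1 (22750 to 29390 CPM in EPO and 2899 to 4006 CPM in Vehicle), which makes up most of the list's sum, and Lum (2.04-fold), and the other 4 were not called. Of 6 neutrophil markers 2 were called higher, Mpo and Csf3r, 1 was filtered, and the sum was 53.04, 89.08 and 469.3 CPM in EPO 1, 2 and 3, against 19.8 to 58.5 CPM in Vehicle. Endothelial markers gave 2 higher and 1 lower call among 6 (sums of 970.9 to 1454 CPM in EPO and 1277 to 1406 CPM in Vehicle), and adipocyte markers 4 lower calls among 6 (1614 to 2021 CPM in EPO and 2609 to 6096 CPM in Vehicle). Of 7 markers of erythroid precursors, cells that divide under EPO, 4 were filtered and 0 of the 3 tested were called. Their sum, mostly Alas2 and Tfrc, was 24.6 to 44.2 CPM in EPO and 41.98 to 60.6 CPM in Vehicle. The filtered gene Rhag had 0, 4 and 3 counts in EPO 1, 2 and 3, and 0 in all Vehicle libraries. The part of these cell types in the results on replication genes was not tested.

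Replication and G1/S genes were higher with EPO in most roles. Of the 43 members, 42 passed the filter on low counts and 1, Fen1, did not. Among the 42, 31 (73.8%) were called higher and 0 lower, where 12.9% of all 16522 genes tested were called higher and 10.1% lower. The same shares over all genes tested are the comparison for the counts by role and by list below. A call together with a rise of at least 2-fold was made for 22 members, against 8.04% of all genes tested. Every EPO library lay above every Vehicle library for 33 members, against 22.9% of all genes tested, and below for 0, against 21.0%. The median log2 fold change was 1.07 over the members and 0.01 over all genes tested. The 42 members each had at least 12 counts in every library, so no member passed the filter through the EPO group alone. Their levels summed to 867.6, 755.6 and 895.0 CPM in EPO 1, 2 and 3, against 433.2, 473.2 and 495.9 CPM in Vehicle 1, 2 and 3.

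The count of higher members ran from 21 to 31 with single libraries left out. It was 21 without Vehicle 1, 21 without Vehicle 2, and 22 without both EPO 1 and EPO 2, where the skeletal muscle sums were highest (859.4 and 2341 CPM). That fit holds 1 EPO library, assumed to vary like the Vehicle libraries, and EPO 3 itself had a skeletal muscle sum of 210.4 CPM. The called members that missed the threshold in it were Cdc6, Gins1, Gins2, Pold1, Pcna, Rfc2, Rfc3, Chaf1b, E2f1 and Ccne1, and Mcm4 passed it. With EPO 1 left out, the library with the highest macrophage sum, the count of higher members was 31. In that fit Pcna lost its call and Mcm4 gained one (edgeR adjusted p = 0.097 and 0.0108). The macrophage sums of EPO 2 and EPO 3, 3642 and 3266 CPM, were still above the 1469 to 3044 CPM of Vehicle. In 18 of the 31 genes the call held in all 14 alternative fits. Those 18 were Mcm2, Mcm3, Mcm5, Mcm7, Mcm10, Pole, Lig1, Tyms, Rrm1, Rrm2, Tk1, Dut, Chaf1a, Uhrf1, E2f2, E2f7, E2f8 and Clspn. Skeletal muscle markers and the myoblast regulators Myod1 and Myog differed between libraries as well, Myog being at 1.92, 7.23 and 0 CPM in EPO 1, 2 and 3 and at 0 counts in Vehicle. The parts of macrophages and of muscle cells in the members' rise were not tested.

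**Figure D1:**
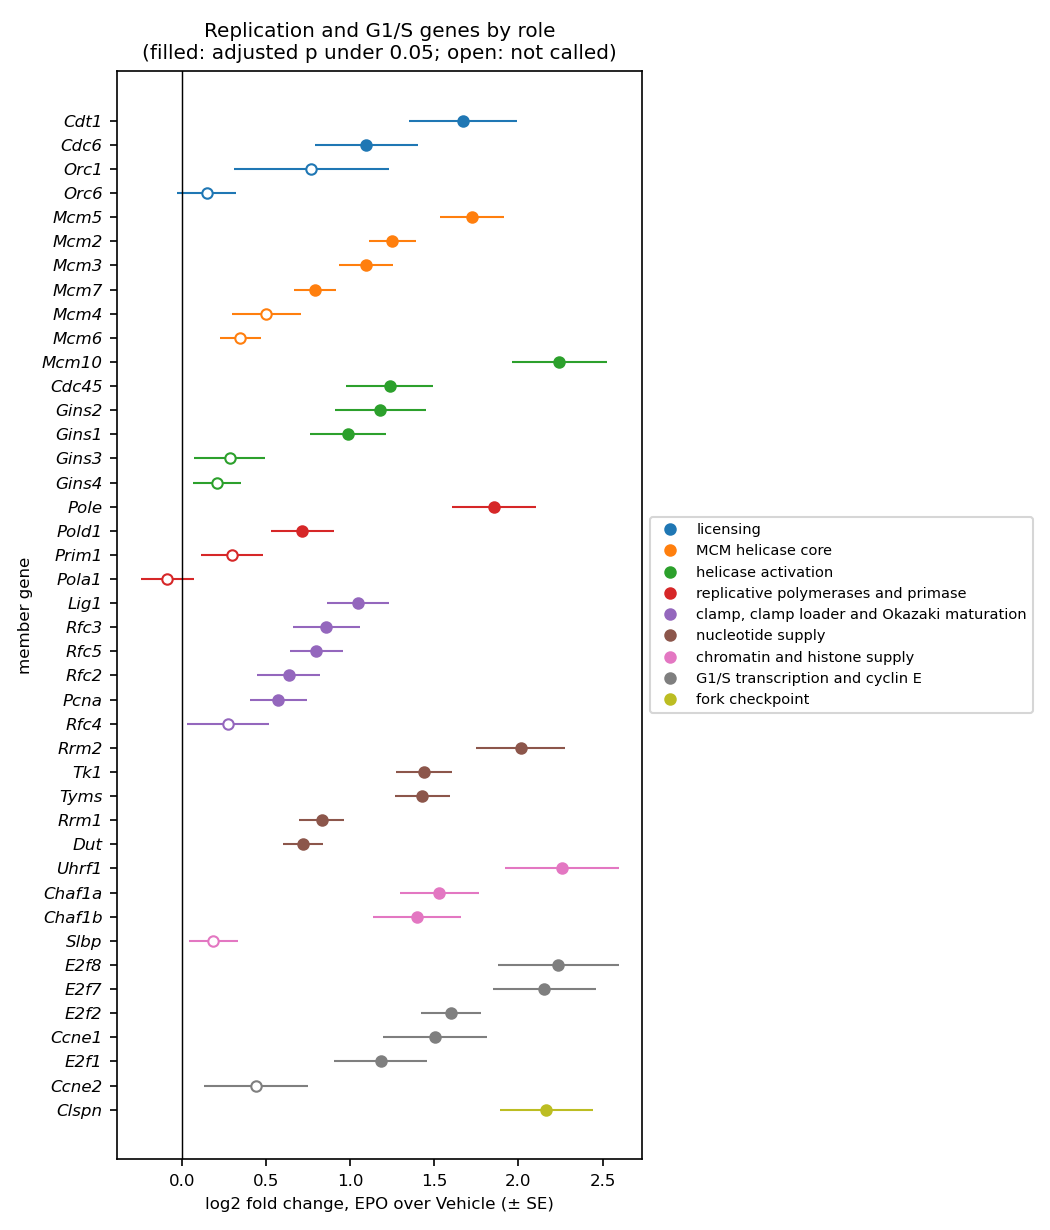
Log2 fold change of EPO over Vehicle (x axis) with its standard error for the 42 tested members (y axis), grouped by role and coloured by role; filled points had an edgeR adjusted p under 0.05. The values run from -0.09 for Pola1 to 2.26 for Uhrf1, and 31 points are filled.

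Of the 6 transcription factors and cyclins that act at G1/S, 5 were called higher. E2f1 and E2f2 are activators of S-phase genes. E2f2 (GRCm38 chromosome 4, 136172394 to 136196057) had 11.1, 12.02 and 13.4 CPM in EPO 1, 2 and 3, against 3.95, 3.62 and 4.45 CPM in Vehicle 1, 2 and 3. All EPO libraries stood above all Vehicle libraries, and the rise was 3.03-fold (12.2 ± 1.16 CPM in EPO and 4.01 ± 0.42 CPM in Vehicle, SD, n = 3 each; edgeR adjusted p = 0.00262). E2f1 rose 2.27-fold (edgeR adjusted p = 0.0222), with its highest value, 34.0 CPM, in EPO 1. Without Vehicle 1 or Vehicle 2 the call for E2f1 was lost (edgeR adjusted p = 0.0878 and 0.0763).

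E2f7 and E2f8, atypical E2Fs that repress the same targets later in S phase, were among the members that rose most. E2f7 (chromosome 10, 110745439 to 110787384) was at 3.90, 5.63 and 6.31 CPM in EPO 1, 2 and 3, against 0.87, 1.32 and 1.35 CPM in Vehicle 1, 2 and 3. E2f8 (chromosome 7, 48866429 to 48881596) was at 4.41, 5.91 and 8.24 CPM in EPO, against 0.83, 1.67 and 1.42 CPM in Vehicle. Neither gene overlapped between groups, with rises of 4.45-fold for E2f7 (edgeR adjusted p = 0.0042) and 4.71-fold for E2f8 (edgeR adjusted p = 0.00616).

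Cyclin E, the partner of Cdk2 at S-phase entry, has a pair of genes. Ccne1 rose 2.83-fold (6.04 ± 0.656 CPM in EPO and 2.12 ± 0.756 CPM in Vehicle, SD, n = 3 each; edgeR adjusted p = 0.0146), and without both EPO 1 and EPO 2 its call was lost (edgeR adjusted p = 0.0785). Ccne2 had 3.29, 6.21 and 6.64 CPM in EPO 1, 2 and 3, against 4.26, 3.27 and 4.38 CPM in Vehicle 1, 2 and 3. The value of EPO 1 lay among the Vehicle values, and Ccne2 was not called (log2 fold change 0.44, SE 0.31, edgeR adjusted p = 0.342).

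Origin licensing gave 2 calls among 4 members. Cdt1, the loader that brings the helicase to origins, was at 19.7, 9.13 and 13.9 CPM in EPO 1, 2 and 3, against 3.65, 3.93 and 5.83 CPM in Vehicle 1, 2 and 3. EPO libraries were all above Vehicle but spread more than 2-fold among themselves, and the rise was 3.19-fold (edgeR adjusted p = 0.0115). Leaving out Vehicle 1 or Vehicle 2 ended the call for Cdt1 (edgeR adjusted p = 0.0547 and 0.0509).

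Cdc6, the ATPase that works with Cdt1, had 5.27, 5.74 and 7.61 CPM in EPO 1, 2 and 3, against 1.82, 3.31 and 3.55 CPM in Vehicle 1, 2 and 3. It rose 2.14-fold (edgeR adjusted p = 0.0393) without overlap, but missed the threshold in each fit that left out 1 library other than EPO 1 (edgeR adjusted p from 0.0561 to 0.109). Orc1, the subunit of the origin recognition complex that cycles with cell division, stood at 0.81, 1.26 and 2.16 CPM in EPO 1, 2 and 3, against 0.52, 1.05 and 0.90 CPM in Vehicle 1, 2 and 3. Orc1 was not called (log2 fold change 0.77, SE 0.46, edgeR adjusted p = 0.267), its EPO 1 value being below that of Vehicle 2 and Vehicle 3. Orc6 was at 10.5, 12.5 and 13.9 CPM in EPO, against 10.6, 12.8 and 10.1 CPM in Vehicle, overlapping groups with a log2 fold change of 0.14 (SE 0.17, edgeR adjusted p = 0.588).

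The fold changes of the 6 subunits of the helicase core ran from 1.27 for Mcm6 to 3.30 for Mcm5. Mcm5 (chromosome 8, 75109569 to 75128439) had 32.6, 24.9 and 35.5 CPM in EPO 1, 2 and 3, against 8.17, 8.87 and 11.1 CPM in Vehicle 1, 2 and 3. Of the 31 called members it had the smallest p, and it rose 3.30-fold (edgeR adjusted p = 0.00258). Mcm2 was at 35.7, 27.4 and 33.6 CPM in EPO, against 13.6, 13.1 and 14.0 CPM in Vehicle, a 2.38-fold rise (edgeR adjusted p = 0.00262). Mcm3 was at 44.1, 33.0 and 41.3 CPM in EPO, against 16.0, 19.1 and 20.4 CPM in Vehicle, a 2.13-fold rise (edgeR adjusted p = 0.00453). In each of these genes the groups were well apart. Mcm7, whose introns hold a microRNA cluster, rose 1.73-fold (edgeR adjusted p = 0.00598).

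Mcm6 and Mcm4 were not called. Mcm6 (chromosome 1, 128331590 to 128359664) had 66.1, 61.4 and 63.5 CPM in EPO 1, 2 and 3, against 48.1, 45.8 and 56.4 CPM in Vehicle 1, 2 and 3. Its groups did not overlap, yet the difference was small (log2 fold change 0.35, SE 0.12, edgeR adjusted p = 0.0755). Mcm4 (chromosome 16, 15623897 to 15637400) was at 18.5, 28.3 and 31.6 CPM in EPO, against 17.5, 20.02 and 17.9 CPM in Vehicle. EPO 1 lay within the Vehicle range (log2 fold change 0.50, SE 0.21, edgeR adjusted p = 0.121), and without EPO 1 Mcm4 was called higher (log2 fold change 0.69, edgeR adjusted p = 0.0108).

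Because the helicase holds each subunit once, the proportions of the 6 transcripts were set side by side per kilobase of exon. Mcm6 was the most abundant in every library, with 26.7% ± 1.86 of the 6 in EPO and 36.4% ± 2.15 in Vehicle (SD, n = 3 each). Mcm5 took 15.0% ± 1.49 in EPO and 7.93% ± 0.779 in Vehicle, and Mcm2 took 9.004% ± 0.758 in EPO and 6.63% ± 0.306 in Vehicle. The highest subunit exceeded the lowest 2.76, 3.34 and 2.82 times in EPO 1, 2 and 3, against 5.27, 5.21 and 6.01 times in Vehicle 1, 2 and 3. The subunits were thus nearer to each other in every EPO library than in any Vehicle library. Relative to the geometric mean of the 6, Mcm5 and Mcm2 were higher in every EPO library (log2 difference of EPO minus Vehicle 0.78 and 0.30), while Mcm6, Mcm4 and Mcm7 were lower in every EPO library (-0.59, -0.48 and -0.16). Mcm3 overlapped (0.15, exact permutation p = 0.4, two-sided, adjusted p = 0.4). For the other 5 the exact permutation p was 0.1, the smallest that 3 against 3 can give, and 0.12 after adjustment over the 6 subunits, so the test could not pass the threshold.

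**Figure D2:**
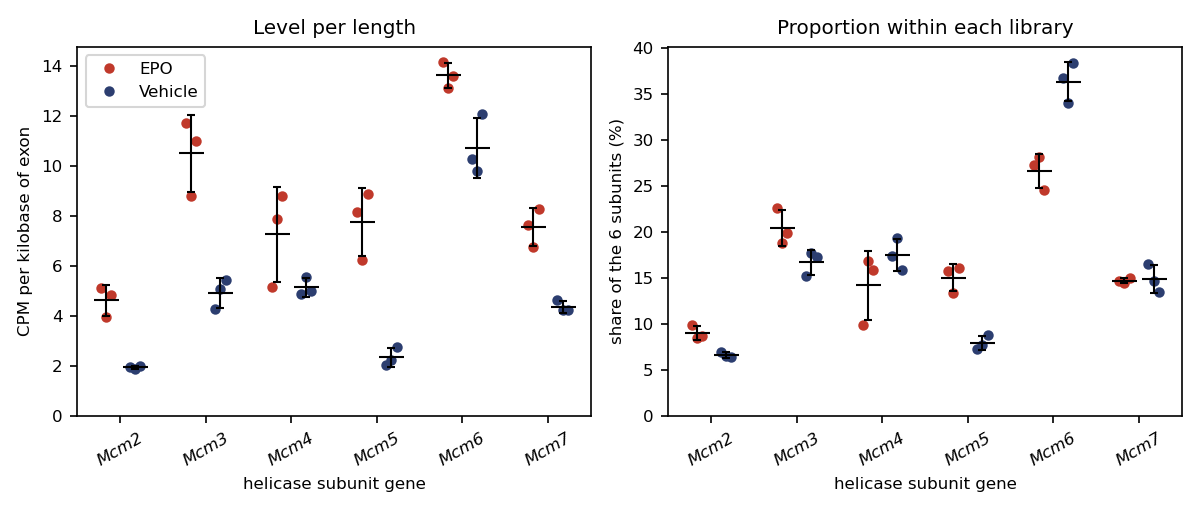
Left, level of each helicase subunit gene in CPM per kilobase of exon; right, its share of the 6 subunits in percent. Points are the 3 EPO and 3 Vehicle libraries, bars the mean and SD. The share of Mcm6 is lower in EPO (26.7% against 36.4% in Vehicle) and that of Mcm5 higher (15.0% against 7.93%).

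Factors that activate the loaded helicase gave 4 calls among 6 members. Mcm10, needed for origin firing but no part of the hexamer, had 3.96, 5.50 and 5.47 CPM in EPO 1, 2 and 3, against 0.83, 1.24 and 1.07 CPM in Vehicle 1, 2 and 3. It rose 4.73-fold (edgeR adjusted p = 0.00313). Cdc45 was at 7.50, 7.91 and 11.1 CPM in EPO, against 2.83, 4.47 and 3.97 CPM in Vehicle, a 2.35-fold rise (edgeR adjusted p = 0.015) that missed the threshold without Vehicle 1 (edgeR adjusted p = 0.0624).

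The 4 GINS genes divided into a called and an uncalled pair. Gins2 was at 9.59, 5.02 and 6.97 CPM in EPO 1, 2 and 3, against 3.17, 3.34 and 3.04 CPM in Vehicle 1, 2 and 3 (2.26-fold, edgeR adjusted p = 0.0208). Opposite-strand exons of Gse1 cover 67.3% of the exon length of Gins2, so reads of the pair cannot be told apart without strand. Gins1 rose 1.98-fold (edgeR adjusted p = 0.021). Both lost their calls without Vehicle 1, Vehicle 2 or Vehicle 3, and Gins1 also without EPO 3 (edgeR adjusted p from 0.0501 to 0.0892). Gins3 had 4.35, 4.45 and 5.68 CPM in EPO, against 3.74, 4.16 and 4.00 CPM in Vehicle, groups that did not overlap but differed little (log2 fold change 0.28, SE 0.21, edgeR adjusted p = 0.371). Gins4 had 26.6, 19.9 and 24.5 CPM in EPO, against 20.7, 20.9 and 19.9 CPM in Vehicle (log2 fold change 0.21, SE 0.14, edgeR adjusted p = 0.332).

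Of the polymerases, the catalytic subunits of the leading and lagging strand enzymes were called and the priming enzymes were not. Pole, the catalytic subunit of polymerase epsilon (chromosome 5, 110286306 to 110337474), had 7.0, 6.82 and 6.28 CPM in EPO 1, 2 and 3, against 1.35, 2.22 and 1.97 CPM in Vehicle 1, 2 and 3. The EPO values lay close together and the rise was 3.62-fold (edgeR adjusted p = 0.00362). Pold1, the catalytic subunit of polymerase delta, had 39.3, 24.9 and 30.9 CPM in EPO, against 20.7, 16.9 and 20.4 CPM in Vehicle (1.64-fold, edgeR adjusted p = 0.0323). Without EPO 3 or any Vehicle library the call for Pold1 was lost (edgeR adjusted p from 0.0659 to 0.116). Pola1, the catalytic subunit of polymerase alpha, had 9.43, 10.5 and 11.8 CPM in EPO, against 12.1, 10.9 and 10.8 CPM in Vehicle, and was the single member with a fold change below 0 on the log2 scale (-0.09, SE 0.16, edgeR adjusted p = 0.717). Prim1, the primase, had 9.51, 10.2 and 13.3 CPM in EPO, against 9.73, 8.79 and 8.42 CPM in Vehicle, where EPO 1 fell among the Vehicle values (log2 fold change 0.30, SE 0.18, edgeR adjusted p = 0.283).

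Of the clamp, its loader and the enzymes that join Okazaki fragments, 5 of the 6 tested were called higher, and their log2 fold changes had a median of 0.71. Pcna, the sliding clamp, was the most abundant member per kilobase of exon, with 113, 90.03 and 98.2 CPM in EPO 1, 2 and 3, against 53.4, 72.4 and 77.2 CPM in Vehicle 1, 2 and 3. It passed narrowly (1.48-fold, edgeR adjusted p = 0.0477) and missed the threshold whenever any library was left out (edgeR adjusted p from 0.0611 to 0.161). It also missed it with other scalings (0.0568 and 0.0567) and in limma-voom (adjusted p = 0.0519). Lig1, the ligase of replication, had 28.7, 22.2 and 32.1 CPM in EPO, against 11.9, 12.5 and 15.7 CPM in Vehicle, a 2.06-fold rise (edgeR adjusted p = 0.0084).

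Among the clamp loader genes, Rfc5 had 15.4, 12.7 and 15.3 CPM in EPO 1, 2 and 3, against 7.95, 7.97 and 9.11 CPM in Vehicle 1, 2 and 3 (1.74-fold, edgeR adjusted p = 0.0124). Rfc3 had 9.87, 9.61 and 10.5 CPM in EPO, against 6.82, 5.17 and 4.55 CPM in Vehicle (1.81-fold, edgeR adjusted p = 0.0222), and Rfc2 rose 1.55-fold (edgeR adjusted p = 0.0478). All 3 lost their calls in some fits with a library left out: Rfc5 without Vehicle 1 or Vehicle 2 (0.0642 and 0.0567), Rfc3 without EPO 2, EPO 3, Vehicle 2 or Vehicle 3 (0.0526 to 0.0814) and Rfc2 without EPO 3 or any Vehicle library (0.0605 to 0.147, edgeR adjusted p throughout). With all libraries kept, Rfc2 also missed the threshold with DESeq2's size factors in edgeR (adjusted p = 0.0509) and in limma-voom (adjusted p = 0.063). Rfc4 had 3.71, 4.89 and 5.59 CPM in EPO, against 4.48, 4.00 and 3.28 CPM in Vehicle, overlapping groups (log2 fold change 0.27, SE 0.25, edgeR adjusted p = 0.462).

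Fen1, the flap nuclease of lagging strand synthesis (chromosome 19, 10199132 to 10204169), had 5, 8 and 11 counts in EPO 1, 2 and 3, against 1, 1 and 1 count in Vehicle 1, 2 and 3, too few to be tested. The ratio of the pooled counts, 24 in EPO and 3 in Vehicle, was 6.31 after scaling (95% counting interval 1.92 to 32.7). That interval covers counting error alone and leaves out variation between libraries. Opposite-strand exons of Tmem258 and Gm10143 cover 84.2% of its exon length, and the part of this overlap in its low count was not tested.

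Every gene of nucleotide supply was called higher, 5 of 5. Tyms, which makes thymidylate, had 15.1, 15.3 and 17.8 CPM in EPO 1, 2 and 3, against 5.26, 6.14 and 6.52 CPM in Vehicle 1, 2 and 3 (2.69-fold, edgeR adjusted p = 0.0027). Tk1, the thymidine kinase of dividing cells, had 26.6, 19.3 and 21.8 CPM in EPO, against 7.65, 8.24 and 9.07 CPM in Vehicle (2.71-fold, edgeR adjusted p = 0.00277). Rrm2, the S-phase small subunit of ribonucleotide reductase (chromosome 12, 24708241 to 24714146), had 16.9, 21.1 and 27.2 CPM in EPO, against 3.74, 6.07 and 6.32 CPM in Vehicle (4.04-fold, edgeR adjusted p = 0.00335). In all of them the groups were apart, and Rrm2 rose more than Rrm1, the large subunit of the enzyme (1.77-fold, edgeR adjusted p = 0.00609), a difference that was not tested. Dut, which removes dUTP, rose 1.65-fold (edgeR adjusted p = 0.00651).

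Chromatin genes that follow the fork gave 3 calls of 4. Uhrf1, which recruits the maintenance DNA methyltransferase to new DNA (chromosome 17, 56303321 to 56323486), had 19.0, 24.6 and 34.0 CPM in EPO 1, 2 and 3, against 3.22, 7.39 and 5.55 CPM in Vehicle 1, 2 and 3. The fold change was the largest of the 42 tested members (4.79-fold, edgeR adjusted p = 0.00485). Chaf1a, the large subunit of the histone chaperone CAF-1, had 11.8, 10.2 and 13.7 CPM in EPO, against 3.00, 4.63 and 4.73 CPM in Vehicle (2.88-fold, edgeR adjusted p = 0.00532). Opposite-strand exons of Ubxn6 cover 52.5% of its exon length. Chaf1b, the middle subunit, had 9.31, 7.03 and 7.996 CPM in EPO, against 2.17, 3.19 and 3.87 CPM in Vehicle (2.63-fold, edgeR adjusted p = 0.0102), and was not called without both EPO 1 and EPO 2 (edgeR adjusted p = 0.0752). Slbp, which binds histone mRNA, had 19.0, 18.6 and 22.5 CPM in EPO, against 16.0, 19.9 and 16.8 CPM in Vehicle, overlapping groups that were not called (log2 fold change 0.18, SE 0.15, edgeR adjusted p = 0.4). Clspn, the mediator of the checkpoint at stalled forks, had 7.31, 8.76 and 8.09 CPM in EPO, against 1.17, 2.18 and 2.001 CPM in Vehicle, a 4.49-fold rise with no overlap (edgeR adjusted p = 0.00315).

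**Figure D3:**
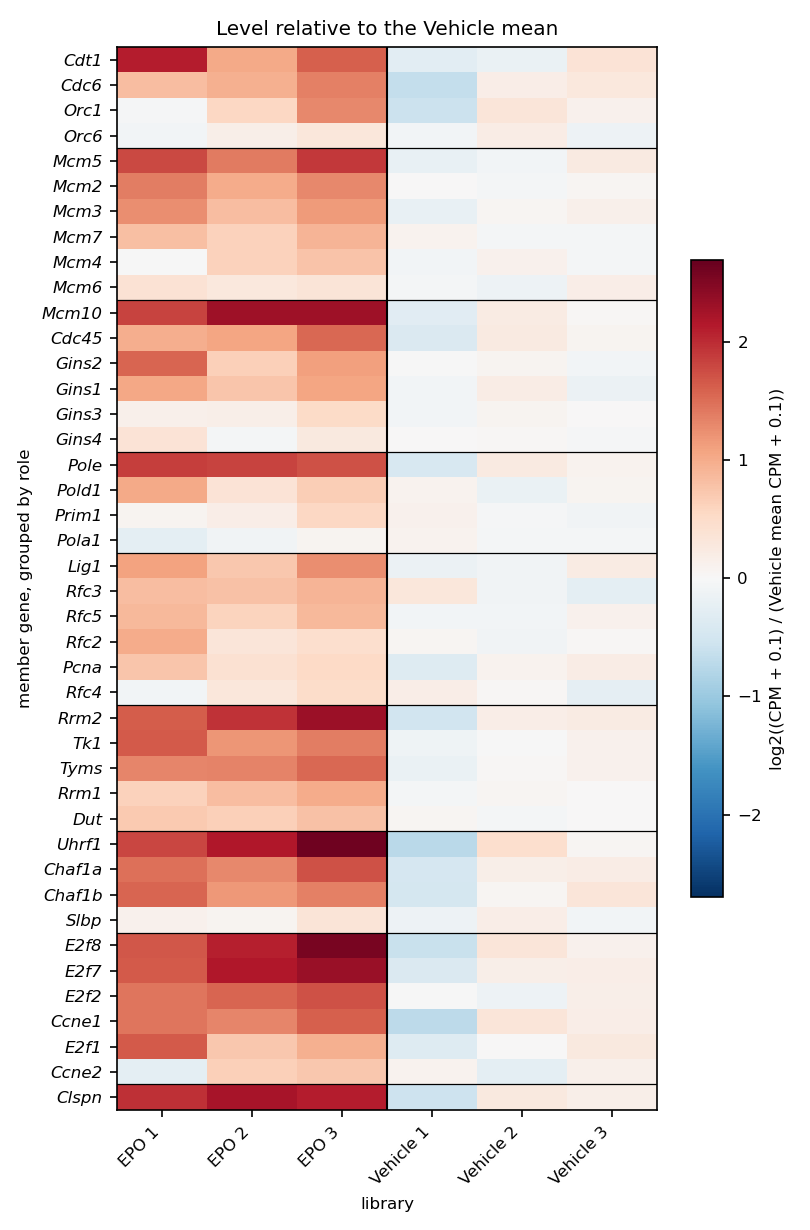
Each member (rows, grouped by role) in each library (columns): log2 of its CPM plus 0.1 over the Vehicle mean plus 0.1. Red is above and blue below the Vehicle mean. EPO 3 holds the highest EPO value in 26 of the 42 members, EPO 1 in 14 and EPO 2 in 2.

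EPO libraries were not ordered alike across members. EPO 3 was the highest of the EPO libraries for 26 of 42 members, EPO 1 for 14 and EPO 2 for 2, while the lowest was EPO 2 for 22, EPO 1 for 19 and EPO 3 for 1. EPO 1 was thus either the highest or the lowest of its group in 33 members: it led for Cdt1, E2f1, Gins2, Pold1 and Rfc2, and trailed for Mcm4, Ccne2, Orc1, Rfc4 and Prim1. In Vehicle the lowest library was Vehicle 1 for 26 of 42 members. The macrophage sum was 6818, 3642 and 3266 CPM in EPO 1, 2 and 3, and the neutrophil sum, given above, was highest in EPO 3. Their part in the order of the EPO libraries was not tested.

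Called and uncalled members did not separate by abundance. Per kilobase of exon, the 31 called members had a median of 3.37 CPM in EPO and 1.53 CPM in Vehicle, and the 11 uncalled members 3.09 CPM in EPO and 2.56 CPM in Vehicle. Vehicle levels ran from 0.13 to 28.2 CPM per kilobase in called and from 0.24 to 15.2 in uncalled members.

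With other genes of the same machinery added, subunits of a complex often differed in their calls. This grouping into complexes was made after the values were seen. Of the origin recognition complex 0 of 6 subunits were called, with log2 fold changes from -0.26 to 0.77. Polymerase alpha with primase gave 0 calls among 4 subunits (-0.09 to 0.54), and RPA, the single-strand binding protein, 0 among 3 (-0.18 to 0.28). Pola2, at 0.54, missed narrowly (edgeR adjusted p = 0.0508). Of all genes tested 12.9% were called higher and 10.1% lower, so complexes this small can hold no call without differing from other genes. Polymerases delta and epsilon gave 1 call of 4 each, in both the catalytic subunit. The uncalled Pole2 had a larger log2 fold change (0.82, edgeR adjusted p = 0.0633) than the called Pold1 (0.71). Pold3 also missed narrowly (0.37, edgeR adjusted p = 0.0674), while Pold2, Pold4, Pole3 and Pole4 lay between -0.13 and 0.16. A difference between catalytic and other subunits was not tested. Both subunits of the DDK kinase, which starts origin firing, were called higher, Dbf4 3.86-fold (edgeR adjusted p = 0.00312) and Cdc7 3.05-fold (edgeR adjusted p = 0.00828). In ribonucleotide reductase Rrm1 and Rrm2 rose and Rrm2b, the small subunit that p53 induces, fell: it had 12.7, 19.1 and 18.1 CPM in EPO 1, 2 and 3, against 30.3, 26.9 and 27.9 CPM in Vehicle 1, 2 and 3 (log2 fold change -0.77, SE 0.18, edgeR adjusted p = 0.0198). Rrm2b missed the threshold without Vehicle 1, Vehicle 2 or Vehicle 3, and without both EPO 1 and EPO 2 (edgeR adjusted p from 0.0524 to 0.0752).

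**Figure D4:**
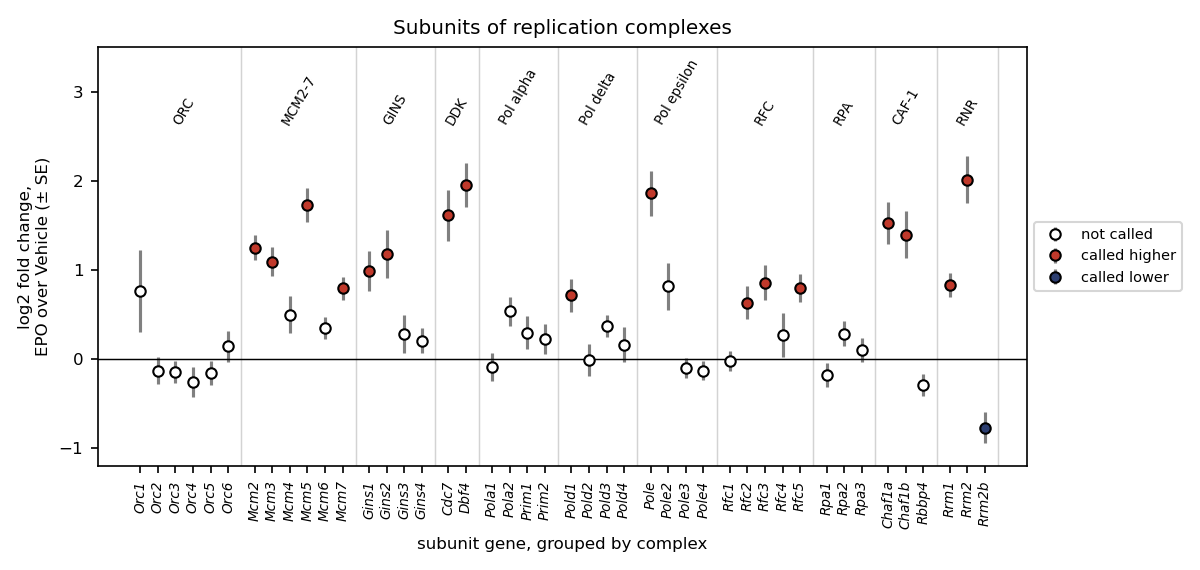
Log2 fold change of EPO over Vehicle with its standard error (y axis) for each subunit gene (x axis) of 11 replication complexes; red points were called higher, blue lower and open points not called. ORC, polymerase alpha with primase (Pol alpha) and RPA hold open points alone, and Rrm2b at -0.77 is the single blue point.

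Over 78 further replication and G1/S genes, 27 (34.6%) were called higher and 2 lower, and the median of all 78 log2 fold changes was 0.37. The call held in all 14 alternative fits for 15 of the 27 higher genes and for 0 of the 2 lower ones. In licensing and firing 5 of 16 (31.2%) were higher, those of smallest p being Topbp1 (1.94-fold), Dbf4 and Ticrr (7.92-fold), all needed to activate the helicase at origins. For polymerase, primase, RPA and clamp loader partners 2 of 17 (11.8%) were higher, a share near the 12.9% of all genes tested: Wdhd1, which ties the helicase to polymerase alpha (2.40-fold), and the nuclease Dna2 (2.46-fold). In fork protection 6 of 14 (42.9%) were higher, led by Mms22l (4.11-fold), the repair gene Brca1 (4.31-fold) and Timeless (2.17-fold). In nucleotide supply 3 of 7 (42.9%) were higher, Dctd (5.83-fold), Dck (1.95-fold) and Nme1 (1.63-fold), and Rrm2b was lower. Nme1 missed the threshold in 6 alternative fits, among them those without EPO 2 or any Vehicle library (edgeR adjusted p from 0.055 to 0.222 over the 6).

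Among chromatin genes 5 of 8 (62.5%) were higher, led by the maintenance methyltransferase Dnmt1 (1.98-fold), Atad2 (2.09-fold) and the histone chaperone Asf1b (2.99-fold). In E2F and CDK regulation 6 of 16 (37.5%) were higher, led by cyclin A2, Ccna2 (6.23-fold), the pocket protein Rbl1 (2.14-fold) and Mybl2 (4.00-fold). Wdhd1, Dck, Nme1, Atad2 and Rbl1 were not called without both EPO 1 and EPO 2 (edgeR adjusted p from 0.0512 to 0.222). The dimer partners of E2F parted: Tfdp1 rose (log2 fold change 0.66, edgeR adjusted p = 0.0105) and Tfdp2 fell (-0.56, edgeR adjusted p = 0.0166), with 22.6, 21.1 and 21.1 CPM of Tfdp2 in EPO 1, 2 and 3, against 31.6, 35.1 and 29.0 CPM in Vehicle 1, 2 and 3. Tfdp2 missed the threshold without EPO 2, EPO 3, Vehicle 1 or Vehicle 2, and without both EPO 1 and EPO 2 (edgeR adjusted p from 0.0518 to 0.0837), and Tfdp1 without Vehicle 1 (edgeR adjusted p = 0.0658).

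Mitosis and G2/M genes were higher as well. Of 25 in the comparison list, 24 (96.0%) were called higher and 0 lower, against 12.9% and 10.1% of all genes tested. The median log2 fold change of the list was 2.29. The exception was Anln (log2 fold change -0.25, edgeR adjusted p = 0.548). Library by library, the median over the members stood 1.05, 0.79 and 1.14 above the Vehicle mean of log2 CPM in EPO 1, 2 and 3, against -0.12, 0.05 and 0.13 in Vehicle 1, 2 and 3. For the G2/M list the median was 1.93, 2.14 and 2.64 in EPO 1, 2 and 3, against -0.52, 0.29 and 0.22 in Vehicle 1, 2 and 3. The G2/M median was the higher one in each EPO library, and the difference between the lists was not tested.

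**Figure D5:**
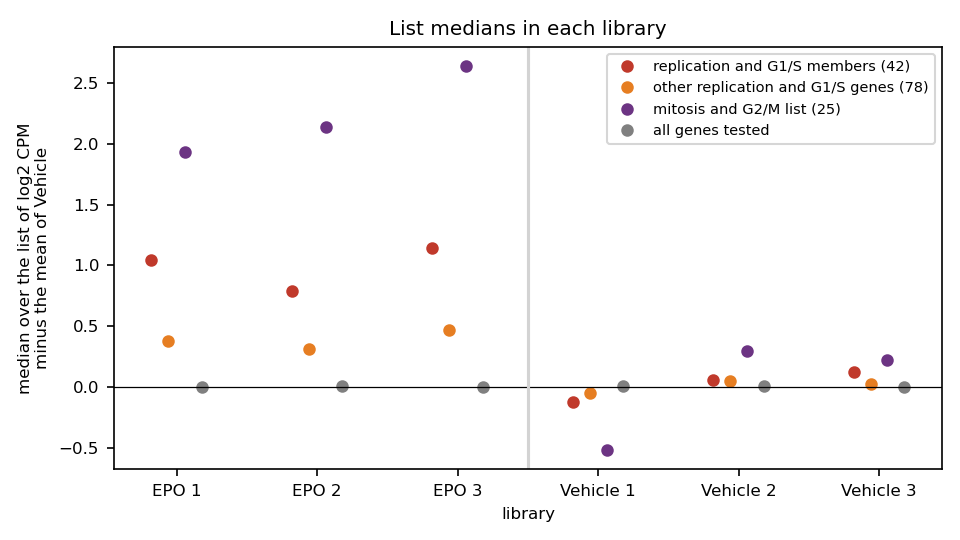
Median over each list of log2 CPM minus the Vehicle mean (y axis) in each library (x axis). The members lie between 0.79 and 1.14 in the EPO libraries, the G2/M list between 1.93 and 2.64, and all genes tested at about 0.

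E2F proteins bind a core of the form TTCCCGC or TTGGCGC, and promoters were searched for both on either strand. RefSeq promoter windows of GRCm38.p6, 250 bases before to 50 after a start, were matched for 36 of the 43 members by symbol. Distances to a start are counted from this RefSeq start, which can differ from the GENCODE start in a gene's coordinates given above. A core was held by 20 of the 36 genes (55.6%), against 2105 of all 27025 genes with a window (7.79%). Counted over windows, it was 21 of 42 for members and 6.81% for all promoters. Of members with a window, 15 of 27 called and 5 of 8 uncalled ones held a core, and a relation of the core to the call was not tested. In the G2/M list 3 of 21 genes held it (14.3%). The TTTGAA element of mitotic promoters showed the opposite order, with 16 of 21 G2/M genes (76.2%), 6 of 36 members (16.7%) and 20.2% of all genes. The CCAAT box, searched alike, was in 23 of 36 members (63.9%), 18 of 21 G2/M genes (85.7%) and 41.1% of all genes. Matches may share bases with one another, and a match says only that the letters are there.

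For 11 members the core nearest to the start among those lying before it is given, with up to 10 bases on each side, read on the strand that carries the core and with the core in capitals. They let the cores of called and uncalled genes be compared, and were chosen after their values were seen (Mcm7 and Chaf1b also have such a core). The called genes are Cdc6 (chr11:98908003-98908029, minus strand, core from 138 bases before the start), Chaf1a (chr17:56040359-56040385, plus strand, 47 bases), Mcm5 (chr8:75109350-75109376, minus strand, 149 bases), Rrm1 (chr7:102441618-102441644, plus strand, 67 bases), Uhrf1 (chr17:56303279-56303305, plus strand, 48 bases), E2f7 (chr10:110745337-110745363, minus strand, 92 bases) and E2f8 (chr7:48881691-48881717, minus strand, 111 bases). The uncalled genes are Mcm6 (chr1:128359735-128359761, minus strand, 46 bases), Prim1 (chr10:128015190-128015216, plus strand, 15 bases), Gins3 (chr8:95633508-95633534, minus strand, 41 bases) and Pola1 (chrX:93632260-93632286, plus strand, 121 bases).
Cdc6: cccaggcgatTTCCCGCtctccaccgg
Chaf1a: gttgccgcggTTCCCGCcaaatacgag
Mcm5: gctggacgttTTGGCGCgaaagttctt
Rrm1: ggagaactcgTTCCCGCcaggtccgct
Uhrf1: gctttctcgcTTCCCGCcacagcgcca
E2f7: cctcgctgtcTTGGCGCtcggcgccgc
E2f8: gaggcgcggaTTGGCGCgcggggcccc
Mcm6: ttggacgggtTTGGCGCgaagtagctc
Prim1: gcctgtcttgTTCCCGCcaattctcgt
Gins3: caaactcgctTTCCCGCgccgcactcg
Pola1: gcccccggccTTCCCGCgggagtgcat

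The promoters of a pair of helicase genes are printed together, Mcm5 with a 3.30-fold rise and Mcm6 with 1.27-fold and no call. Each holds 2 cores before its start, in capitals on the gene's own strand, where TTGGCGC on the other strand reads GCGCCAA. The stretch of Mcm5 is chr8:75109325-75109424 (plus strand) and that of Mcm6 chr1:128359735-128359834 (minus strand), the first core lying 164 bases before the start in Mcm5 and 109 in Mcm6. Mcm6 was added after its values were seen, and a relation of these stretches to the rise was not tested.
Mcm5: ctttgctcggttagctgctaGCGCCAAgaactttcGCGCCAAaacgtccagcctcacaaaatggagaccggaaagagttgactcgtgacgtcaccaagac
Mcm6: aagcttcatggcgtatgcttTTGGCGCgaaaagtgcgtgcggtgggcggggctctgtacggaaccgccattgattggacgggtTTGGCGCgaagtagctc

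E2f2 also had a core, after the RefSeq start and within the window (chr4:136172304-136172323, plus strand), printed to the window's end. This stretch lies before the GENCODE start of E2f2, 136172394. Of the 5 called members of smallest p, Mcm5, E2f2, Mcm2, Tyms and Tk1, the other 3 held no core in these letters.
E2f2: ggcatatagtTTGGCGCtaa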

How the data were processed

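The authors deposited whole-number counts per Ensembl gene, with no normalization. The submitters' processing notes name CASAVA 1.8, TopHat2 2.0.6 and the mm10 build. Which program counted reads, with what annotation and strand option, is not given in the sources used here. Columns abbreviated Con were read as Vehicle. Symbols, GRCm38 coordinates and exon lengths came from GENCODE M21 (47224 of 47643 IDs matched); 15 of 43 members overlap opposite-strand exons over at least 1% of their exon length, so their counts are uncertain.

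EPO and Vehicle were compared in R 4.3.3 with edgeR 4.0.16 (filterByExpr, TMM, glmQLFit and glmQLFTest, two-sided, Benjamini-Hochberg over 16522 genes); 31121 genes were filtered out. The common biological coefficient of variation was 0.244. Log2 CPM used a prior count of 2. A library with 0 counts could hold up to 0.0837 to 0.13 CPM (3 counts, counting error only). Alternatives used DESeq2 1.42.0 and limma 3.58.1. The procedure was also run on simulated data, and the outcome is not given here.

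Members, lists and tests were chosen with earlier results of these data known. Per-library values are given for up to 3 called members of smallest p per role, every uncalled member and every filtered one; Pcna was added. In each further list the 3 higher genes of smallest p and all lower genes are named, and Cdc7, Anln, Tfdp1, Myog and single marker genes were named after their values were seen. Protein sequences were not used here.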

Additional observations from a re-analysis of the deposited data

How the results depend on the processing

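Over all genes tested, 3804 calls were made (2133 higher, 1671 lower). With 1 library left out the calls ran from 1635 to 4281, the higher ones from 936 to 2265 and the lower ones from 699 to 2016. Without both EPO 1 and EPO 2 there were 1548 (1085 higher, 463 lower). The other 6 settings without the replicate block gave from 3481 calls in limma-voom to 4962 in DESeq2. Of the 78 further replication and G1/S genes, 29 were called in the main setting, 19 without both EPO 1 and EPO 2 (0 lower), and with single libraries left out 0 to 1 were lower, except 2 without EPO 1. Why fits without a Vehicle library call fewer genes was not tested; they hold fewer samples.

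The count of higher members stayed within 1.5 times its value in all 14 alternatives, and 0 members were lower in any of them. Of the 31 called members, 13 lost the call at least once, 11 of them with a library left out; Mcm4 alone gained one. Pola1 turned to a log2 fold change of 0.0719 without both EPO 1 and EPO 2. Log ratios of the helicase subunits to their geometric mean kept their direction with single libraries left out. Division by length cannot change differences of these log ratios between groups, but it does set the percent shares and the highest-to-lowest folds.

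The replicate numbers were not shown to pair libraries: deviations of same-numbered libraries correlated at -0.0088, -0.0098 and 0.127, and EPO 3 alone correlated best with its own number. With the replicate block 27 members and 2884 genes in all were called.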
